A study of Mus musculus with 8 samples.

Results

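The 10 genes described here are Trp53, the mouse gene for the transcription factor p53, and 9 genes that p53 is known to activate: Mdm2, Ccng1, Cdkn1a, Zmat3, Trp53inp1, Phlda3, Bax, Bbc3 and Aen. They were taken by gene name from the deposited tables, which list 21949 genes, and each was represented by its transcript with the highest mean fragment count over the libraries. All 10 passed the filter on low counts, among 16051 genes that did. Testes of C57BL/6 mice at postnatal day 24 were compared between wild-type animals (WT) and animals without Miwi, the PIWI protein of the male germline that is encoded by Piwil1. For each genotype the data hold 2 libraries of total RNA and 2 of ribosome-protected fragments, the short stretches of mRNA that a translating ribosome shields from nuclease, called footprints below. The labels describe the mutant as Miwi-null and give no further detail of the allele. They do not say whether the 2 libraries of a group came from separate animals. P-values therefore measure the spread between libraries, which may be technical. That spread was estimated per gene over both assays together, although replicates differed more in footprints than in RNA. The tissue is the whole testis, in which fewer cells of a type and less RNA per cell cannot be told apart.

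The p53 protein is kept scarce in most cells because Mdm2, a ubiquitin ligase, marks it for destruction. DNA damage and other stresses stabilise p53, which then binds paired copies of a short DNA element and raises transcription of genes for cell cycle arrest, repair, death and its own restraint. In the testis p53 is best known in the germ line, where meiotic cells make and repair DNA breaks as part of normal recombination and where p53 takes part in the removal of damaged germ cells. Since p53 is controlled largely through protein stability, the level of its mRNA does not measure its activity.

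Sequence upstream of the transcription start was at hand for 8 of the 10 genes, with 12 promoters between them, from RefSeq (GRCm38.p6); Zmat3 and Trp53inp1 had no entry. The 250 bases before each start were searched for the p53 half-site consensus, which runs over 10 bases as purines, a C, a pair of A or T bases, a G and pyrimidines. The pattern is its own reverse complement, so both strands are read at once, and overlapping matches were allowed. A half-site lay in 6 of the 12 promoters, against 2341 of all 32851 promoters in the table (7.1%). A full site was defined as 2 half-sites 0 to 13 bases apart. It lay in 1 of the 12, the first listed promoter of Cdkn1a, and in 21 of all promoters (0.06%). The windows below are shown because they hold a strict match to the half-site pattern of the element that p53 is known to bind. Each is written 5′ to 3′ on the strand of its gene with the half-sites in capitals.
Trp53, chr11:69580264-69580313, plus strand: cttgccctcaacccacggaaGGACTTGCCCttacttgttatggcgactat
Mdm2, chr10:117710915-117710964, minus strand: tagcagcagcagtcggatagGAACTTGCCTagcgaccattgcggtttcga
Ccng1, chr11:40755442-40755491, minus strand: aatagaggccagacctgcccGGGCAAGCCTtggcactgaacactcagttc
Cdkn1a, chr17:29090886-29090957, plus strand: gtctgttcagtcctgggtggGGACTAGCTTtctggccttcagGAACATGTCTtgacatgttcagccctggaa
Bax, chr7:45467070-45467119, minus strand: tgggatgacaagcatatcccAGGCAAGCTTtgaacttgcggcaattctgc
Aen, chr7:78895917-78895966, plus strand: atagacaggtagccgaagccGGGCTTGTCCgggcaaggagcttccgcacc
The half-site began 75 bases before the start in Trp53, 186 in Mdm2, 185 in Ccng1, 201 in Bax and 121 in the second listed promoter of Aen. In the first listed promoter of Cdkn1a the 2 half-sites began 73 and 51 bases before the start, with 12 bases between them. The second listed promoter of Cdkn1a held none. In the first, the 10 bases directly after the later half-site differ from the pattern only in their first base, a T. They were therefore not counted as a half-site and stand in lower case. The promoters of Phlda3 and Bbc3 held no such letters in this window. These matches are descriptions of sequence only: neither p53 binding nor chromatin was measured here.

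Total counts ran from 11130955 to 15592800 in the RNA libraries and from 11662660 to 28334620 in the footprint libraries, so 1 count stood for 0.034 to 0.0893 CPM. CPM is the usual unit of counts relative to the library total, here after TMM scaling, which sets the bulk of genes level between libraries, so every change below is relative to that bulk. Piwil1, the gene for Miwi, was read at 8215 and 7165 RNA counts in WT and at 46 and 26 in the null libraries. Its footprints fell from 14206 and 6868 to 37 and 94, so every library matched its label. Levels of cell type markers differed between the genotypes. The summed RNA of 5 markers of elongating spermatids was 12400 and 12200 CPM in WT and 829 and 824 CPM in the null libraries, and all 5 fell. Of 6 markers of spermatocytes, the meiotic cells, 4 rose, with sums of 713 and 744 CPM in WT and 942 and 921 CPM in null. Sums for 6 markers of Leydig cells, the hormone-making cells between the tubules, were 1160 and 1150 CPM in WT and 2220 and 2230 CPM in null, and 3 rose while 1 fell. Sertoli cell markers were at 271 and 252 CPM in WT and 157 and 151 CPM in null, where 4 of 6 fell. Their footprint sums were 525 and 614 CPM in WT and 523 and 460 CPM in null. Footprint sums of spermatocyte markers overlapped, at 2530 and 2680 CPM in WT and 2620 and 2560 CPM in null. Those of elongating spermatids were 5750 and 5740 CPM in WT and 56.5 and 54.2 CPM in null. Those of Leydig cells were 2530 and 2450 CPM in WT and 8040 and 8960 CPM in null. Of the other marker lists, 2 of 5 fell in spermatogonia, 1 of 5 in round spermatids, 4 of 5 in peritubular myoid cells and 2 of 4 in endothelium, and 2 of 5 rose in macrophages. No marker was at 0 in all RNA libraries, and the part of these shifts in the changes of the p53 genes was not tested.

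Total RNA of the 10 genes moved in both directions. With edgeR's quasi-likelihood test adjusted over all genes, Zmat3 and Aen rose, Trp53 and Bax fell, and the remaining 6 did not pass. That is 4 of 10, where 37.3% of all genes tested were called, 16.5% higher and 20.8% lower. In 5 genes both null RNA libraries lay above both WT libraries, in 3 both lay below, and in 2 the groups overlapped. Of all genes tested, 34.7% had both null RNA libraries above and 43.1% had both below, so non-overlap was common. The median log2 change of the 10 was 0.31, and that of all genes tested was -0.07. In footprints only Zmat3 was called, against 25.4% of all genes, and the median of the 10 was 0.08 against -0.0046. Translational efficiency (TE, the change in footprints relative to the change in RNA) was called for none of the 10 against 14.9% of all genes (7.35% higher, 7.56% lower). At an unadjusted p under 0.05 the TE count was 2, against 30.8% of all genes, and DESeq2 called 1, Trp53, against 13.5%. When the 4 RNA libraries were fitted alone, 8 of the 10 were called, 5 higher and 3 lower, where 59.2% of all genes were (29.7% higher, 29.5% lower).

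**Figure D1:**
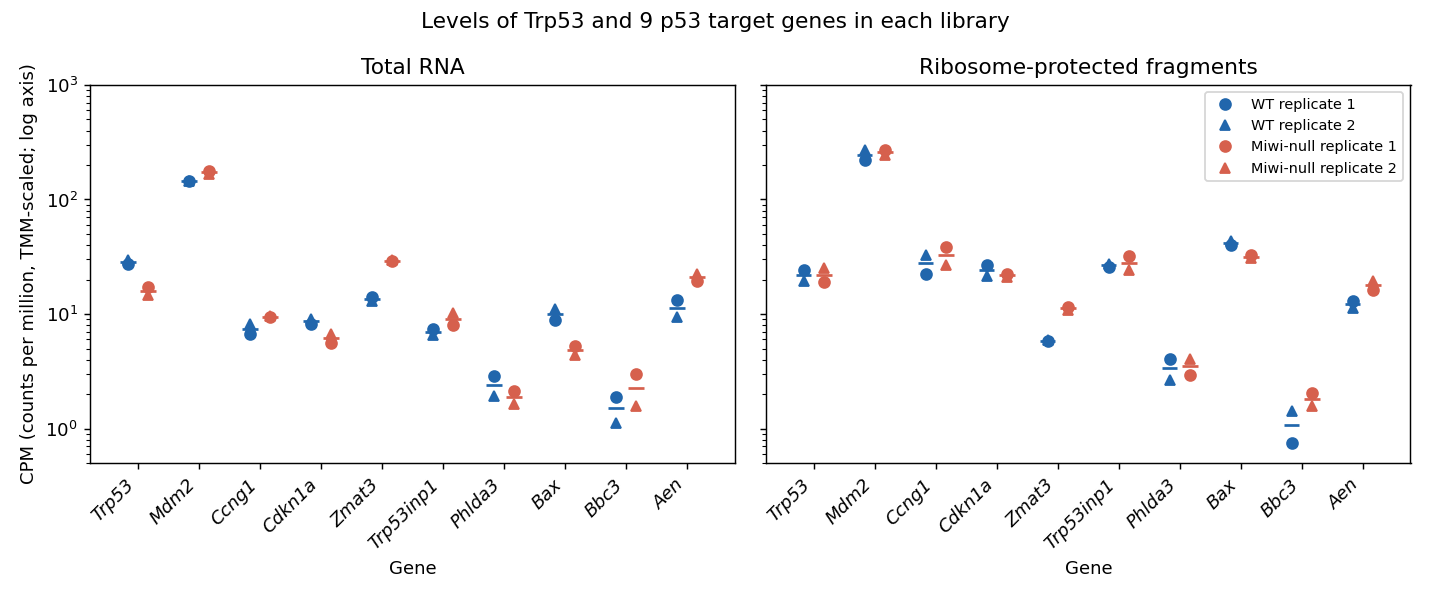
Level of each gene in every library, in TMM-scaled CPM on a log axis, for total RNA (left) and footprints (right); circles and triangles are replicates 1 and 2, and short bars are group means. The null libraries of Zmat3 lie above its WT libraries in both panels, by 2.168-fold in RNA and 1.911-fold in footprints, and Mdm2 is far above the other genes in all 8 libraries.

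Trp53 itself, at chr11:69580348-69591873, had less RNA in null testes, while its footprints overlapped between the genotypes. Its RNA stood at 27.13 and 29.56 CPM in the WT libraries and at 17.08 and 14.56 CPM in the null libraries. Both null values lay below both WT values. The log2 change was -0.84 ± 0.179 (SE), a fold of 0.559 (edgeR adjusted p = 0.0069). The call was lost without WT RNA replicate 2 (-0.78, adjusted p = 0.0512) and without null RNA replicate 2 (-0.73, adjusted p = 0.0646). Footprints of Trp53 were 24.28 and 19.4 CPM in WT and 19.03 and 25.14 CPM in null, so the groups overlapped. Their log2 change was 0.02 ± 0.171 (edgeR adjusted p = 0.935).

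The ratio of footprint CPM to RNA CPM was taken between libraries of the same replicate number. For Trp53 it was 0.8947 and 0.6564 in the WT replicates and 1.114 and 1.727 in the null replicates. Its mean of 0.776 ± 0.169 (SD, n = 2) in WT lay at percentile 37.6 of the 10166 genes with at least 10 CPM. Its mean of 1.42 ± 0.433 (SD, n = 2) in null lay at percentile 60.2 of 10161 genes, and both null ratios were above both WT ratios. The TE change of 0.86 ± 0.248 on the log2 scale had an unadjusted p of 0.00748 and just missed the threshold (edgeR adjusted p = 0.0501). It passed in 6 of 18 other settings, with adjusted p from 2.14e-05 to 0.186 and log2 values from 0.59 to 1.04 over all of them, and among the 6 were the fits without WT RPF replicate 1 (0.0216) and without null RPF replicate 1 (0.0288). In the authors' deposited table, which applies no replicate test, the TE change of Trp53 was 0.79 and carried the mark Up. Most members carried a mark there. Cdkn1a (0.28) and Bax (0.43) were also marked Up. Ccng1 (-0.28), Zmat3 (-0.29), Trp53inp1 (-0.47) and Aen (-0.41) were marked Down. Mdm2 (-0.05) was marked unchanged, and Phlda3 and Bbc3 had no value. These changes stand beside a fold change labelled by gene, and they need not be those of the transcript used here. For Mdm2 the authors' merged ratios of that transcript were 1.706 in null and 2.059 in WT, which do not give -0.05. The mouse genome also holds a processed pseudogene of Trp53, and the sources used here do not say how fragments that match both were counted.

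Mdm2, and Ccng1, which acts on p53 through Mdm2, showed no call in either assay in the fit of all 8 libraries. Other regulators of p53, some of them called, belong to a list described further below. Mdm2 RNA was 144.8 and 145.6 CPM in WT and 177.8 and 168.0 CPM in null. Both null libraries were higher, and the log2 change of 0.25 ± 0.116 did not pass (edgeR adjusted p = 0.123). It passed in 5 of 18 other settings, among them the RNA libraries alone (adjusted p = 3.9e-05) and the fits without WT RPF replicate 1 (0.0115) or 2 (0.0397). Mdm2 footprints were 219.2 and 270.0 CPM in WT and 270.7 and 246.0 CPM in null, with overlapping groups and a log2 change of 0.08 ± 0.115 (edgeR adjusted p = 0.659).

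Ccng1 encodes cyclin G1, which takes part in a feedback on p53 through Mdm2. Its RNA was 6.649 and 8.19 CPM in WT and 9.344 and 9.677 CPM in null, with both null values higher and a log2 change of 0.36 ± 0.261 (edgeR adjusted p = 0.312). It passed in 2 of 18 other settings, the RNA libraries alone (adjusted p = 0.0213) and a fit that pairs footprint libraries of opposite replicate number, called crossed below and added after seeing the data (0.0381). Its footprints were 22.41 and 33.08 CPM in WT and 38.14 and 27.01 CPM in null, which overlap. The log2 change in Ccng1 footprints was 0.23 ± 0.218 (edgeR adjusted p = 0.492), and it passed only with the crossed numbers (0.0267).

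Cdkn1a encodes p21, the cyclin-dependent kinase inhibitor through which p53 halts the cell cycle. Of the 8 genes searched, it alone held a full p53 site by the strict pattern used above. Its RNA was 8.261 and 9.084 CPM in WT and 5.591 and 6.713 CPM in null. Both null libraries lay lower, and the log2 change of -0.50 ± 0.178 did not pass (edgeR adjusted p = 0.0572). It passed in 4 of 18 other settings, among them with all transcripts of a gene summed (adjusted p = 0.03) and without WT RPF replicate 2 (0.0285). Cdkn1a footprints were 26.82 and 21.39 CPM in WT and 22.42 and 21.05 CPM in null, which overlap, with a log2 change of -0.16 ± 0.147 (edgeR adjusted p = 0.479).

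Zmat3, at chr3:32334792-32365665, encodes an RNA-binding zinc finger protein that acts downstream of p53 on growth and splicing. It was the one member called in both assays. Its RNA was 14.04 and 12.96 CPM in WT and 29.1 and 29.47 CPM in null. Both null libraries lay above both WT libraries by far more than replicates differed, with a log2 change of 1.12 ± 0.118, a fold of 2.168 (edgeR adjusted p = 0.000202). Zmat3 footprints rose alongside, from 5.806 and 5.901 CPM in WT to 11.52 and 10.92 CPM in null. That is a log2 change of 0.93 ± 0.125, a fold of 1.911 (edgeR adjusted p = 0.000817). Both calls held in all 18 other settings, with adjusted p up to 0.00503 for RNA and up to 0.0184 for footprints.

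The ratio of footprints to RNA of Zmat3 was the lowest of the 10 in each genotype by its mean. It was 0.4136 and 0.4555 in WT and 0.3959 and 0.3706 in null. The means lay at percentiles 19.3 and 17.7 of the genes with at least 10 CPM. The TE change was -0.18 ± 0.171 (edgeR adjusted p = 0.522). Zmat3 overlaps the long noncoding RNA gene 4930429B21Rik, and the sources used here do not say whether the counting used strand.

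Trp53inp1 encodes a stress-induced nuclear protein that promotes p53-dependent arrest and death, and Phlda3 encodes a pleckstrin homology protein that restrains Akt signalling. Trp53inp1 RNA was 7.455 and 6.627 CPM in WT and 8.042 and 10.2 CPM in null, with both null values higher and a log2 change of 0.37 ± 0.196 (edgeR adjusted p = 0.174), which passed in the RNA libraries alone (0.0268). Its footprints overlapped, at 25.91 and 27.35 CPM in WT and 31.89 and 24.17 CPM in null, with a log2 change of 0.06 ± 0.163 (edgeR adjusted p = 0.811). Phlda3 was low throughout, with RNA at 2.888 and 1.936 CPM in WT and 2.144 and 1.656 CPM in null. Its groups overlapped in both assays, and its log2 changes were -0.34 ± 0.356 in RNA and 0.09 ± 0.279 in footprints (edgeR adjusted p = 0.484 and 0.852).

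Of the genes for cell death, Bax, at chr7:45461695-45466903, fell in RNA. Bax is the pore-forming protein of the mitochondrial outer membrane that commits cells to apoptosis. Its RNA was 8.933 and 11.09 CPM in WT and 5.285 and 4.359 CPM in null. Both null libraries lay well below the WT libraries, with a log2 change of -1.05 ± 0.169, a fold of 0.484 (edgeR adjusted p = 0.00178). The call held in all 18 other settings, with adjusted p up to 0.0229.

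Bax footprints also lay lower in both null libraries, at 32.51 and 30.75 CPM against 40.2 and 43.52 CPM in WT. Their log2 change of -0.41 ± 0.133 did not pass (edgeR adjusted p = 0.0563), and it passed in 2 of 18 other settings, without scaling factors (adjusted p = 0.0407) and with the footprint replicate numbers crossed (0.000331). The footprint to RNA ratio of Bax was the highest of the 10 in each genotype by its mean, at 4.501 and 3.923 in WT and 6.152 and 7.055 in null. These means stood at percentiles 91.5 and 95.3 of the genes with at least 10 CPM. The TE change of 0.64 ± 0.216 did not pass (edgeR adjusted p = 0.0811), though it did with the crossed numbers (0.00717).

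Bbc3 encodes Puma, a BH3-only protein that sets Bax free to act, and it was low throughout. Its RNA was 1.881 and 1.117 CPM in WT and 2.987 and 1.569 CPM in null, and its footprints 0.747 and 1.418 CPM in WT and 2.054 and 1.56 CPM in null. RNA values overlapped, while both null footprint values were higher. Neither change passed, with log2 values of 0.61 ± 0.444 in RNA and 0.76 ± 0.434 in footprints (edgeR adjusted p = 0.317 and 0.239). The footprint change passed in 1 of 18 other settings. The mean count of Bbc3 over the 8 libraries was 26.9.

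Aen, at chr7:78895927-78911209, encodes a nuclease that digests DNA during apoptosis. Its RNA was 13.3 and 9.381 CPM in WT and 19.53 and 22.41 CPM in null. Both null libraries were higher, with a log2 change of 0.88 ± 0.19, a fold of 1.842 (edgeR adjusted p = 0.00718). The call was lost without WT RNA replicate 2 (0.65, adjusted p = 0.0555) and without null RNA replicate 2 (0.78, adjusted p = 0.0586). Aen footprints were 12.9 and 11.4 CPM in WT and 16.17 and 19.38 CPM in null. These groups did not overlap either, and the log2 change of 0.55 ± 0.182 just missed the threshold (edgeR adjusted p = 0.0561), passing in 7 of 18 other settings, 3 of them without WT RNA replicate 1 (0.0491), WT RNA replicate 2 (0.0486) or WT RPF replicate 1 (0.0455).

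**Figure D2:**
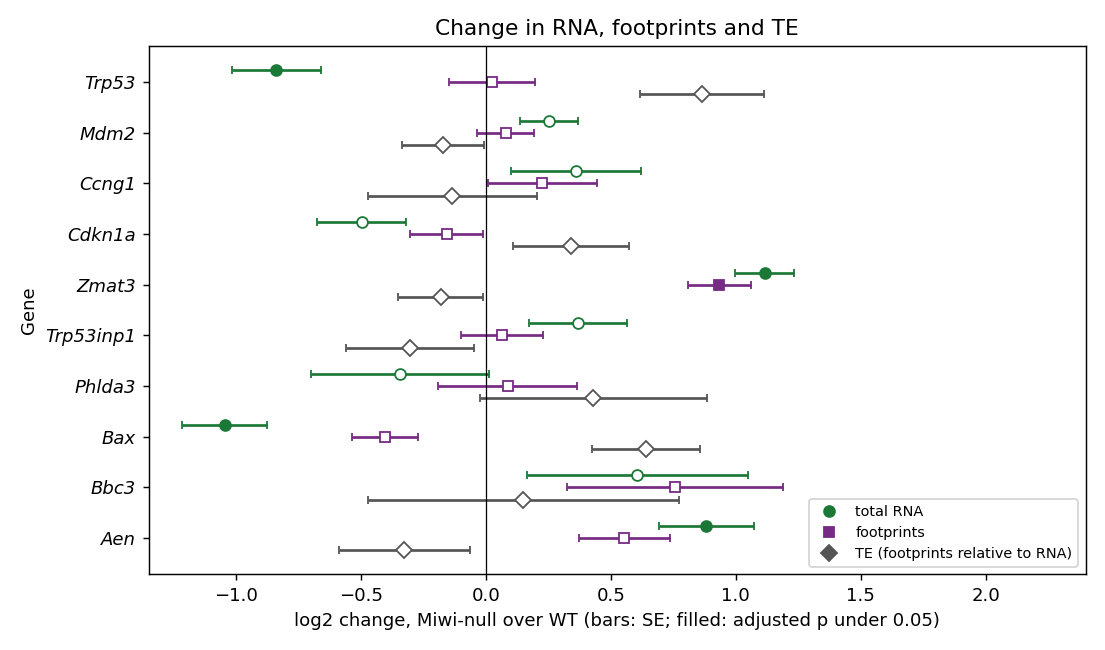
Log2 change from WT to null for each gene in total RNA (circles), footprints (squares) and TE (diamonds), with SE bars from edgeR; filled symbols have an adjusted p under 0.05. Filled symbols are the RNA of Zmat3, Aen, Trp53 and Bax and the footprints of Zmat3, and no TE symbol is filled.

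Within the death genes the executioner Bax and the nuclease Aen thus moved in opposite directions in RNA, by -1.05 and 0.88 on the log2 scale. Of the 10 genes, 9 had a footprint change nearer to 0 than their RNA change, Bbc3 being the exception, and so did 57.7% of all genes tested, a count made after the values were seen. The RNA change was negative for Trp53, Cdkn1a, Bax and Phlda3, and the footprint change was negative for Cdkn1a and Bax. None of these differences between assays passed as TE.

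The 2 deeper footprint libraries were WT replicate 1 and null replicate 2, and same-numbered footprint libraries deviated from their group means in opposite directions (r = -0.831 across 10171 genes, which are not independent). Footprint values were therefore also compared within the deeper and within the shallower pair. Zmat3 was 1.881 times higher in null in the deeper pair and 1.952 times in the shallower. Bax was at 0.7649 and 0.747 of WT, and Aen at 1.502 and 1.418 times WT. Trp53 was at 1.035 and 0.9809 times WT. For Cdkn1a (0.7849 and 1.048) and Trp53inp1 (0.9328 and 1.166) the pairs lay on opposite sides of 1.

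Levels can be ordered between genes only per length, here as CPM per kilobase of coding sequence (RPKM). In WT RNA the order of mean RPKM was Mdm2 (98.99), Trp53 (24.23), Cdkn1a (18.18), Bax (17.38), Zmat3 (15.51), Aen (11.25), Trp53inp1 (9.82), Ccng1 (8.412), Phlda3 (6.432) and Bbc3 (2.588). The replicate ranges of Cdkn1a and Bax, of Bax and Zmat3, and of each neighbouring pair from Aen to Phlda3 overlapped. In null RNA Mdm2 (117.9 RPKM) was followed by Zmat3 (33.66) and Aen (20.8), while Trp53 was at 13.52 and Bax at 8.371. Zmat3 thus stood at rank 5 in WT and rank 2 in null, and Bax at rank 4 and rank 8.

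In footprints the order was closer between genotypes. Mdm2 led at 166.7 RPKM in WT and 176.1 in null, Bax was next at 72.67 and 54.92, and Cdkn1a followed at 50.54 and 45.56. Zmat3 was at 6.728 RPKM in WT and 12.9 in null, and Bbc3 was last at 1.87 and 3.121. In WT only Trp53inp1 and Ccng1 overlapped as neighbours. In null the overlapping neighbours were Cdkn1a and Trp53inp1, Trp53inp1 and Ccng1, and Trp53 and Aen.

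**Figure D3:**
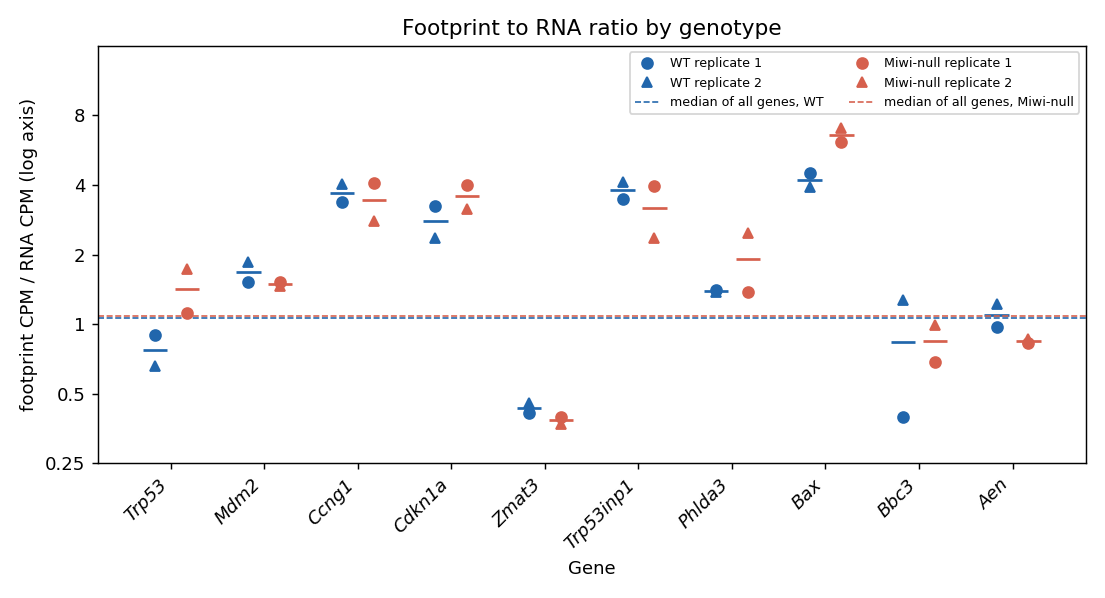
Footprint CPM divided by RNA CPM for each gene in each replicate, on a log axis, with short bars for means and dashed lines for the median of all genes with at least 10 CPM (1.06 in WT, 1.08 in null). Bax, Trp53inp1 and Ccng1 lie above the dashed lines and Zmat3 below them in both genotypes.

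The 10 genes spread widely in footprint to RNA ratio. In WT the mean ratio was 4.212 for Bax, 3.801 for Trp53inp1, 3.704 for Ccng1, 2.801 for Cdkn1a, 1.684 for Mdm2 and 1.388 for Phlda3. It was 1.093 for Aen, 0.8336 for Bbc3, 0.776 for Trp53 and 0.4345 for Zmat3. The ratio also depended on coding length across the genes with at least 10 CPM. Its WT median was 2.08 under 600 nt, 1.49 from 600 to 1500 nt and 0.764 above. Spearman's rho with length was -0.42 in WT and -0.44 in null. The points share libraries and are not independent. Bax, at 576 nt, exceeded the median of its length class in WT but lay within the quartiles of that class (0.86 to 4.43). In null its mean of 6.604 lay above them (0.934 to 5.45). Zmat3, at 870 nt, lay below the lower quartile of its class in WT (0.724) and in null (0.701).

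The RNA change followed coding length as well. Among genes with a mean of at least 5 CPM, the median log2 change in RNA was -0.363 in 1633 genes under 600 nt, -0.137 in 4724 genes of 600 to 1500 nt and 0.034 in 5445 longer genes. In footprints these medians were -0.083, -0.031 and 0.064. The labels give mean RNA insert sizes of 266 and 244.5 nt in WT and 287.6 and 284 nt in null, so insert size and genotype cannot be told apart. With the length trend removed, an alternative chosen after seeing the data, all 4 RNA calls remained. Trp53 was then at -0.75 (edgeR adjusted p = 0.0122), Bax at -0.82 (0.00627), Zmat3 at 1.24 (0.000128) and Aen at 0.99 (0.00437). Cdkn1a, at 477 nt one of the shortest, moved from -0.50 to -0.21 (adjusted p = 0.396), and the TE change of Trp53 became 0.79 (adjusted p = 0.0676).

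**Figure D4:**
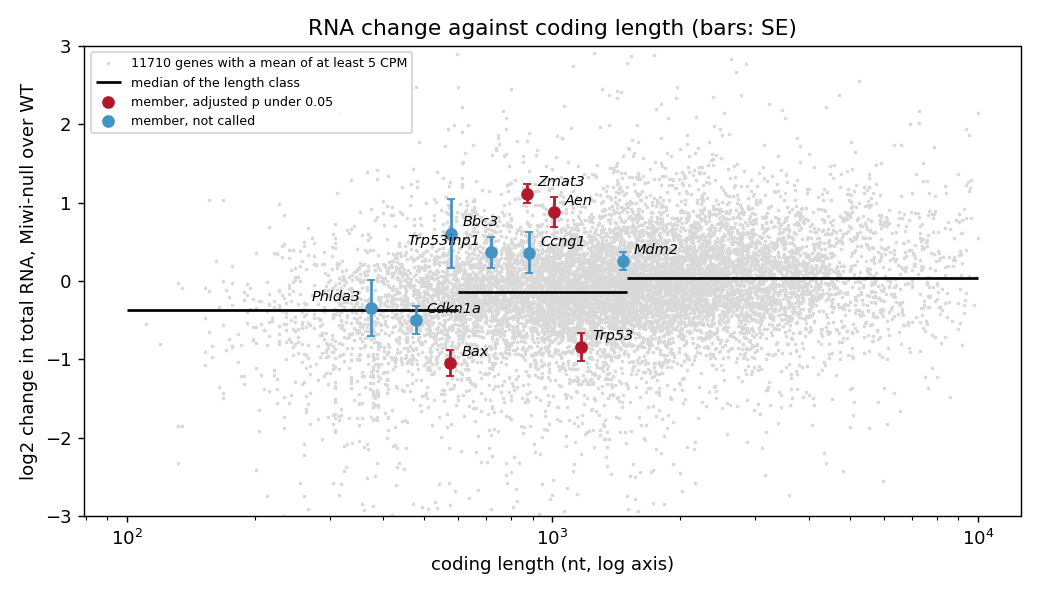
Log2 RNA change from WT to null against coding length (log axis) for the 10 genes with SE bars, over genes with a mean of at least 5 CPM in grey; horizontal lines are the medians of 3 length classes. The class medians climb from -0.363 to 0.034 with length. All of the 10 genes except Cdkn1a and Phlda3 lie away from the median of their class by more than their SE.

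Across the 8 libraries the genes whose log2 CPM was most like that of Trp53 were Ube2v1 (Pearson's r = 0.977), Hist1h3h (0.961) and Sh3d19 (0.961), among 10170 genes compared. These values are a description, since the libraries fall into 4 groups and share 2 assays. Hist1h3h belongs to a histone family with near-identical copies, so its counts are uncertain.

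Other genes of the pathway were taken from 4 lists. Of 24 tested genes of the p53 family and of regulators of p53, 5 rose and 8 fell in RNA, where 16.5% of all genes rose and 20.8% fell, with a median log2 change of 0.085 against -0.073 over all genes. The split turned to 6 higher and 5 lower without scaling factors and with TMM within each assay, and to 12 and 8 in the RNA libraries alone. Atr, the kinase that signals replication stress and unpaired chromosomes in meiosis, rose by 1.71 ± 0.0945 (edgeR adjusted p = 7.11e-06), from 516.9 to 1694 CPM, and Trp63, the p53 relative of the germ line, by 1.27 ± 0.235 (adjusted p = 0.00347). Cdkn2a, which encodes the Mdm2 inhibitor Arf, fell by 1.35 on the log2 scale (SE 0.184, adjusted p = 0.000724), and Rpl11, a ribosomal protein that also binds Mdm2, fell by 0.99 (SE 0.139, adjusted p = 0.000854). These 4 calls held in all 18 other settings.

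In footprints 1 regulator rose and 5 fell, where 12.0% of all genes rose and 13.3% fell. Atr rose by 1.14 ± 0.0931 (edgeR adjusted p = 4.52e-05), and Bmi1, a polycomb repressor of Cdkn2a, fell by 0.65 on the log2 scale (SE 0.108, adjusted p = 0.00267). Both calls held in all 18 other settings, but that of Cop1, a ubiquitin ligase for p53, at -0.50 ± 0.152 (adjusted p = 0.044), held in 8 only and was lost without any 1 RNA library, WT RPF replicate 2 (0.0861) or null RPF replicate 2 (0.271). TE of 4 rose and of 4 fell, against 7.35% and 7.56% of all genes. Rpl11 was at 1.17 ± 0.194 (edgeR adjusted p = 0.00713), a call that held in all settings, and its footprints stood at 151.7 CPM in WT and 171.6 CPM in null. Cdkn2a (0.91, adjusted p = 0.0312), Rchy1 (-0.82, 0.0145) and Mdm4 (-0.74, 0.0176) held in 8, 14 and 15 of 18. Each of these 3 was lost without replicate 1 of WT RNA and without either null RNA library.

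Of 18 tested targets in arrest and repair, 4 rose and 1 fell in RNA, where 37.3% of all genes were called in either direction, with a median of -0.057. With the footprint replicate numbers crossed the split was 4 and 5. Cdc25c, a phosphatase that drives entry into division and that p53 represses, rose by 1.21 ± 0.199 (edgeR adjusted p = 0.00191). Polk, a translesion DNA polymerase, rose by 0.87 ± 0.0978 (adjusted p = 0.00027). Sesn2, a stress-induced restraint on mTORC1, fell by 0.86 on the log2 scale (SE 0.121, adjusted p = 0.000875). All 3 RNA calls held in the 18 other settings.

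Footprints rose for 2 of these 18 and fell for none, where 25.4% of all genes were called, with a median of 0.273. Sfn (14-3-3 sigma) was at 1.495 ± 0.359 (edgeR adjusted p = 0.0163) and Gadd45a at 0.74 ± 0.186 (adjusted p = 0.0196). Both were lost without null RPF replicate 2 (adjusted p = 0.0713 and 0.0569), and Gadd45a also without null RPF replicate 1 (0.0616). TE rose for Cnot3 (0.70, edgeR adjusted p = 0.0394) and Sesn2 (0.64, 0.038) and fell for Polk (-0.60, 0.0219). That is 3 of 18, where 14.9% of all genes were called, and the split turned to 0 higher and 1 lower without scaling factors, with TMM within each assay and with transcripts summed. These TE calls held in 7, 4 and 11 of 18 other settings, and each was lost without replicate 1 of WT RNA, without either null RNA library and without replicate 1 of null RPF.

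Of 29 tested targets in death and metabolism, 2 rose and 3 fell in RNA, with a median of -0.037, while in footprints 7 rose and 2 fell, with a median of 0.121. Of all genes, 16.5% rose and 20.8% fell in RNA and 12.0% rose and 13.3% fell in footprints, and whether the list differs from them was not tested. Without scaling factors and with the replicate block, the RNA split turned to 2 higher and 1 lower. Dglucy, a mitochondrial glutamate cyclase, rose in RNA by 1.72 ± 0.328 (edgeR adjusted p = 0.00402) and in footprints by 1.12 ± 0.26 (0.0137). Its footprint call was lost without null RPF replicate 1 (adjusted p = 0.0565). Ak1, an adenylate kinase, fell by 1.23 in RNA (adjusted p = 0.00133) and by 1.06 in footprints (0.00374) on the log2 scale, and both calls held in all settings.

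Ephx1, an epoxide hydrolase, rose in RNA by 0.64 ± 0.175 (edgeR adjusted p = 0.021), a call lost on leaving out any of the 4 RNA libraries (adjusted p up to 0.115). Tnfrsf10b, a death receptor, was at -1.05 ± 0.326 (adjusted p = 0.0338), a call that also failed without any 1 RNA library (up to 0.182) or null RPF replicate 2 (0.0521). In footprints Fas, a death receptor too, was at 1.05 ± 0.269 (adjusted p = 0.0215) from levels of 1.014 CPM in WT and 2.01 CPM in null. That call was lost without WT RPF replicate 1 (0.0888) or null RPF replicate 2 (0.208) and in DESeq2 (0.229). Sat1, a polyamine acetyltransferase, was at -0.57 (adjusted p = 0.0493), held in 4 of 18 settings and was lost on leaving out any of the 8 libraries. TE rose for 1 of the 29, against 7.35% of all genes, namely Fdxr, a mitochondrial reductase, by 0.92 ± 0.155 (adjusted p = 0.00764), and was lost without WT RNA replicate 1 (0.0517) or null RNA replicate 1 (0.0614).

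Of 24 tested genes of the BCL2 family and caspase machinery, 1 rose and 4 fell in RNA, against 16.5% and 20.8% of all genes, with a median of -0.152. The split turned to 2 higher and 1 lower with the coding-length trend removed and to 4 and 3 without WT RPF replicate 1. Birc2, an inhibitor of apoptosis, rose by 1.34 ± 0.118 (edgeR adjusted p = 7.65e-05). Cycs, the somatic cytochrome c, fell by 1.12 on the log2 scale (SE 0.242, adjusted p = 0.00743), and Aifm1, a mitochondrial flavoprotein, by 0.82 (SE 0.155, adjusted p = 0.00377). The Cycs call was lost without WT RNA replicate 2 (0.0638) or null RNA replicate 1 (0.0685) and with the length trend removed (-0.70, 0.052), and cytochrome c has many pseudogenes, so its counts are uncertain.

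In footprints 3 of these 24 rose and none fell, where 12.0% of all genes rose, with a median of 0.112. Bik, a BH3-only protein, rose by 0.81 ± 0.152 (edgeR adjusted p = 0.00512), in all settings. Birc3, another inhibitor of apoptosis, was at 0.70 ± 0.221 (adjusted p = 0.0491), held in 6 of 18 and was lost without either null RNA library or any 1 footprint library. TE rose for Aifm1 (1.001, edgeR adjusted p = 0.0146) and fell for Birc2 (-0.73, 0.0217), where 14.9% of all genes were called, and each call was lost on leaving out any of the 4 RNA libraries. Leaving out 1 library moved the number called in RNA in each of the 4 lists, and the number called over all genes moved as well.

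**Figure D5:**
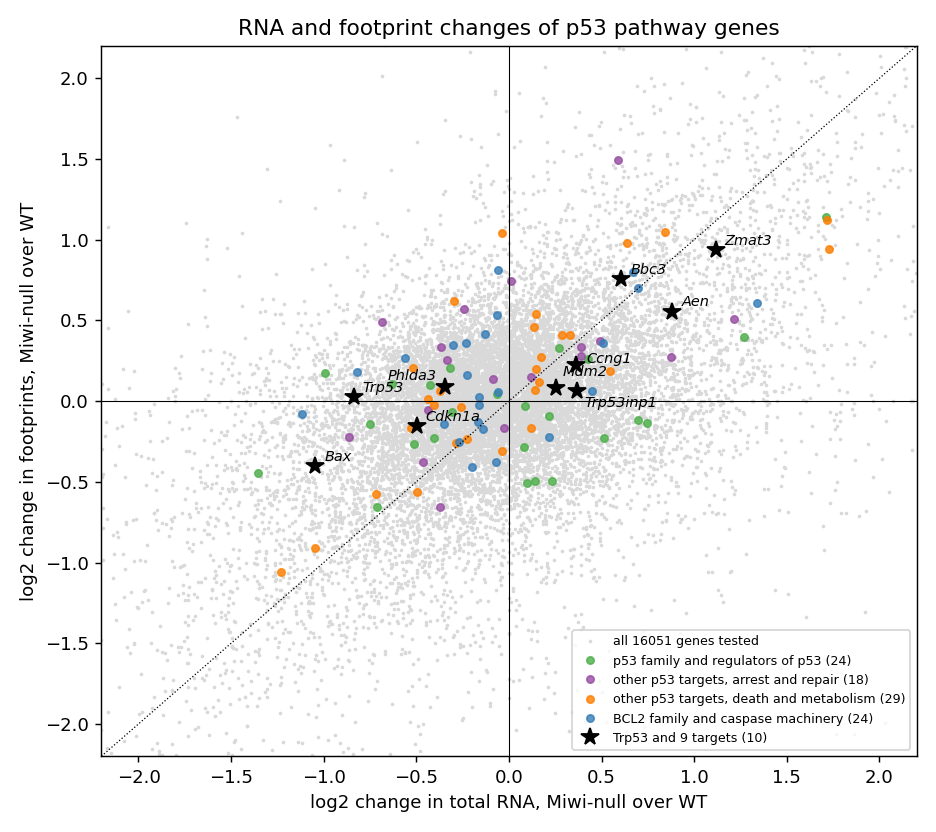
Log2 change in footprints against log2 change in RNA, null over WT, for the 10 genes (stars), the 4 pathway lists (coloured points) and all genes tested (grey; those past 2.2 in either direction lie outside the axes); the dotted line marks equal change. The stars lie on both sides of 0 in RNA, from Bax at -1.05 to Zmat3 at 1.12, and within a narrower band in footprints.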

How the data were processed

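Fragment counts per transcript were deposited by the authors, without normalization, in a table for each replicate number. Deposited FPKM values and the ratio of RPF FPKM to RNA FPKM (the authors' TE) stand beside them, per the file headers, with the authors' log2 TE change; the text prints the one from their merged table. STAR 2.5.0a, Bowtie 1.2.2, cutadapt 2.5 and the build GRCm38 stand in the submitters' processing notes. The sources used here do not give the counting program, its use of strand or its treatment of multiply mapping fragments. Of the transcript lengths given, 84.7% were multiples of 3, so they were read as coding lengths. The 34765 transcripts without a length held 0 counts. Counts were therefore taken to cover coding sequence, which the sources used here do not state. Summing transcripts gave 2.23 to 2.39 times the counts of the top transcript, so that transcript stood for its gene.

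Counts were tested in R 4.3.3 with edgeR 4.0.16 (filterByExpr, minimum count 10 and total 15; TMM; robust quasi-likelihood fit of 4 groups, 4 residual degrees of freedom; Benjamini-Hochberg over 16051 genes, threshold 0.05). TE is the interaction of genotype and assay. The median SE at 10 CPM or more was 0.135 in RNA, 0.131 in RPF and 0.189 in TE. The procedure was tested on simulated data. The chi-square per gene between replicates was 1.18 to 43.7, above sampling noise in each group. With 2 libraries against 2, an exact permutation test of a single value cannot go below a two-sided p of 0.333, so none was used. Alternatives were other scalings, no filter, DESeq2 1.42.0, summed transcripts, replicate blocks, fits within an assay and leaving out each library.

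All 10 members are named. From each list and comparison the text names the called genes with the largest log2 change, at most 2 in each direction, and Piwil1 serves as the label check. The members and lists were chosen with earlier results of these data known.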

Additional observations from a re-analysis of the deposited data

How the results depend on the processing

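Counts of called members and genes depended on the setting. In footprints the members called were 2 under RLE scaling, without scaling factors, without the filter and with the coding-length trend removed. In TE 1 member was called under RLE scaling, without the filter and in DESeq2, where 14.6%, 12.1% and 13.5% of all genes were. In fits of a single assay, 8 members and 9040 genes (59.2%) were called in RNA. In footprints 1985 genes (12.7%) were called, and Zmat3 was the only member among them. With the replicate number as a block, the members called stayed at 4, 1 and 0 in RNA, footprints and TE. Of all genes, 31.3%, 19.1% and 7.71% were called, the last being 1237 genes. Same-numbered libraries did not deviate together (r from -0.831 to 0.076 between groups). These correlations cannot show whether same-numbered RNA and footprint libraries share a sample, and the labels do not say. The footprint to RNA ratios of each replicate divide libraries of the same number and so rest on that match. With replicate number within genotype as the block, 0 members and 1850 genes (11.5%) were called in TE. With the footprint replicate numbers crossed, added after seeing the data, 7, 5 and 2 members were called in RNA, footprints and TE. Over all genes the calls were 9102, 8183 and 6540, or 56.7%, 51% and 40.7%. Leaving out 1 library gave 2 to 6 members in RNA, 1 to 2 in footprints and 0 to 1 in TE, and 3253 to 7088, 2939 to 5171 and 622 to 3635 genes; dropping a library leaves a group with 1, which is assumed to vary like the others. Higher calls were 44.1% of RNA calls and 49.3% of TE calls, but 55.1% and 29.2% without scaling factors. They were 39.0% of TE calls with TMM within each assay. Without scaling the median of all genes shifted by -0.1421 in TE. The share of all genes called moved as well, in RNA from 31% in DESeq2 to 59.2% in the RNA libraries alone. In footprints it was 12.7% in those libraries alone and 51% with crossed numbers, and in TE 7.71% with the replicate block and 40.7% with crossed numbers. List counts are to be read against these shares. Over the 18 alternatives, called genes in the regulator list ranged from 6 to 20 in RNA, 2 to 13 in footprints and 1 to 15 in TE. They ranged from 3 to 9, 0 to 11 and 0 to 8 for arrest and repair, from 2 to 13, 5 to 17 and 0 to 6 for death and metabolism, and from 2 to 11, 2 to 12 and 0 to 9 for the BCL2 and caspase list. The mean of the authors' deposited ratio was in WT 0.9709 for Trp53, 2.093 for Mdm2, 4.607 for Ccng1, 3.507 for Cdkn1a, 0.541 for Zmat3, 4.728 for Trp53inp1, 1.731 for Phlda3, 5.26 for Bax and 1.358 for Aen, and in null 1.722 for Mdm2, 0.4418 for Zmat3, 7.635 for Bax and 0.9773 for Aen; these are ratios of FPKM values. The changes that switched sign had not passed the test: Trp53 in footprints was -0.0204 without scaling factors, and with the length trend removed Phlda3 in RNA was 0.02 and Bbc3 in TE -0.0215. Leaving out 1 library gave ranges of -0.35 to 0.70 for Bbc3 and -0.44 to 0.16 for Ccng1 in TE. In footprints these were -0.0313 to 0.24 for Mdm2, -0.0294 to 0.52 for Ccng1, -0.31 to 0.0534 for Cdkn1a, -0.19 to 0.24 for Trp53, -0.20 to 0.49 for Phlda3 and -0.14 to 0.28 for Trp53inp1. The cause of these shifts was not tested. Counts were lowest and SE largest for Bbc3 and Phlda3.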
